A study of Mus musculus with 75 samples.

Results

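The comparison described here sets repeated leptin (FasLLL) against a single leptin injection (FasSSL) in the chromatin of GFP-positive nuclei, which are labelled LepRb positive, from mouse hypothalamus. Its members are the 8 libraries whose labels give these treatments and that sort, out of 75 samples in the series. They are 4 of the 16 H3K27ac ChIP-seq libraries and 4 of the 16 ATAC-seq libraries, with 2 libraries per treatment in each assay. The libraries were chosen by their labels. All mice were LepRcre/+; SUN1-sfGFP/+ and had been kept at least 2 months, and all those compared were fasted for 36 hours. FasLLL mice received leptin at 5 mg/kg at hours 12, 24 and 34 of the fast, a treatment the labels call 24 hours of leptin. FasSSL mice received leptin at the same dose at hour 34, a treatment the labels call 2 hours of leptin. The last injection thus fell at the same hour in both groups, and they differ in the 2 earlier injections. The name FasSSL has the letter S at the earlier positions, and the protocol states saline injections only for the fasted group without leptin, FasSSS. Libraries from FasSSS mice and from fed mice (FedSSS), and the GFP-negative nuclei of every treatment, serve below as points of reference.

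Leptin is a hormone of fat tissue whose blood level drops in fasting. Its long receptor form, LepRb, signals through the kinase JAK2 to STAT transcription factors, chiefly STAT3, and in hypothalamic neurons this lowers appetite and raises energy use. Acetylation of histone H3 at lysine 27 (H3K27ac) marks active promoters and enhancers, and ATAC-seq inserts adapters with the Tn5 transposase where DNA is open. In these mice Cre recombinase under the leptin receptor gene switches on a GFP-tagged protein of the nuclear envelope, so that nuclei can be sorted by flow cytometry. A cell keeps the tag once Cre has acted, whether or not it still makes the receptor. Hypothalami were pooled before the sort, and the labels do not say whether the 2 replicates of a treatment were separate pools. A p-value thus covers only these libraries and not the spread between mice. Its error rests mainly on the variance over all regions, as given below.

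The values are the authors' normalized signal per region, in arbitrary units, and coordinates are those of mouse build mm9, counted from 1. The deposited tables tie no region to a gene and the annotation at hand is of another build, so regions are given by position, with no gene, exon or intron named. For the same reason the sort could not be checked against LepRb or neuronal marker genes. A difference is log2(FasLLL signal + 1) minus log2(FasSSL signal + 1), averaged over the pair of replicate 1 libraries and the pair of replicate 2 libraries, and a region was called at a Benjamini-Hochberg adjusted p under 0.05. In pooled nuclei, fewer nuclei that carry a signal and less signal per nucleus cannot be told apart.

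Few regions differed between repeated and single leptin. In H3K27ac, 15 of 97839 tested regions were called (0.0153%), with 0 higher and 15 lower in FasLLL (limma with the replicate number as a block). In ATAC, 30 of 31486 tested regions were called (0.0953%), with 4 higher (0.0127%) and 26 lower (0.0826%) in FasLLL by the same test. An unadjusted p under 0.05 was reached by 4000 regions in H3K27ac and 1744 in ATAC. The authors' deposited table holds 0 regions with an FDR under 0.05 for this comparison in either assay, and 834 in H3K27ac and 536 in ATAC with an unadjusted p under 0.05. The smallest FDR in the authors' deposited table is 1 for H3K27ac and 0.713 for ATAC. Without the replicate block, 0 regions were called in either assay by limma, and 372 in H3K27ac and 767 in ATAC had an unadjusted p under 0.05. With the block each fit had 1 residual degree of freedom and an infinite prior, so the error of a region came from the trend of variance with signal and not from its own 4 libraries.

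Over all tested regions the differences centred on 0. The median H3K27ac difference was 0.01, and the middle 90% of regions lay between -0.51 and 0.5. The median ATAC difference was -0.01, and the middle 90% lay between -0.6 and 0.58. The 95% interval of a typical region reached 0.53 to either side of its estimate in H3K27ac and 0.66 in ATAC. A change smaller than that in a typical region was not detectable with these libraries. This interval is not adjusted for the number of regions tested, so a call needed a larger change. The H3K27ac region on chromosome 6 from 94213412 differed by 1.34 and was not called (adjusted p = 0.211 by limma). Medians by chromosome stayed between -0.04 and 0.02 for H3K27ac and between -0.04 and 0.07 for ATAC, apart from chromosome Y in H3K27ac at -0.62 over 26 regions and the mitochondrial genome at -0.08 in H3K27ac and -0.38 in ATAC.

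The 2 replicate pairs did not show the same regions moving. Across H3K27ac regions the difference in the replicate 1 pair and that in the replicate 2 pair had a correlation of -0.01 over 97839 regions, and 47% had the same sign in both. Across ATAC regions the correlation was 0.01 over 31486 regions, and 50.3% had the same sign. These are descriptions across regions, which share libraries and are not independent. A single pair showed many 2-fold differences. In H3K27ac the replicate 1 pair had 2270 regions at least 2-fold higher and 2238 at least 2-fold lower in FasLLL, and the replicate 2 pair had 1345 higher and 1026 lower. Of these, 47 were at least 2-fold higher in both pairs, 91 were at least 2-fold lower in both, and 113 went 2-fold in opposite directions. In ATAC, 23 regions were at least 2-fold higher in both pairs, 23 at least 2-fold lower in both, and 36 went 2-fold in opposite directions. The spread of ATAC differences was wider in the replicate 2 pair (SD 0.59) than in the replicate 1 pair (SD 0.39). In H3K27ac the SD was 0.48 in the replicate 1 pair and 0.39 in the replicate 2 pair.

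**Figure D1:**
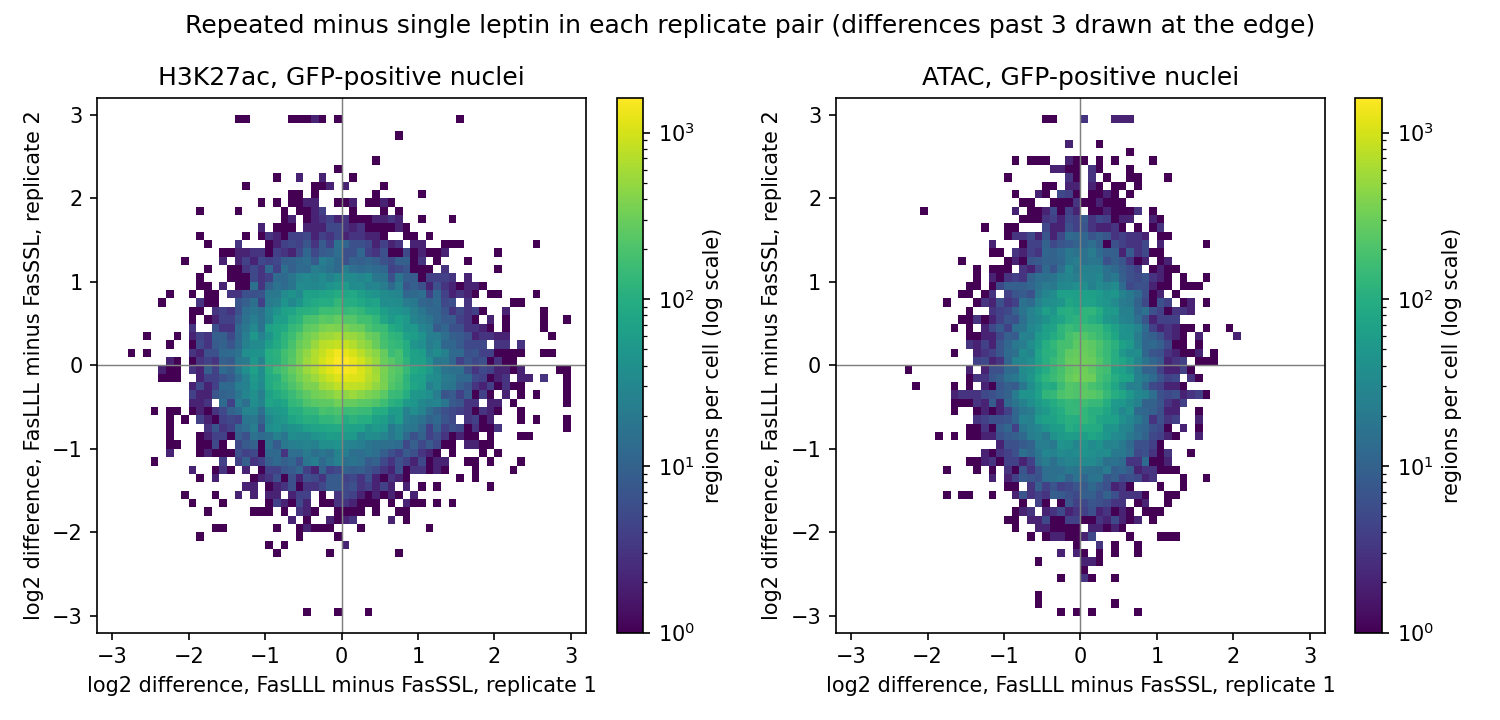
Difference between FasLLL and FasSSL (log2) in the replicate 1 pair (horizontal) and the replicate 2 pair (vertical) for tested regions in GFP-positive nuclei, H3K27ac left and ATAC right, with colour for the number of regions on a log scale. The cloud of H3K27ac regions has a correlation of -0.01 and that of ATAC regions 0.01, and the ATAC cloud is taller than wide (SD 0.59 against 0.39).

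Regions whose 2 FasLLL libraries both lay above or both below the 2 FasSSL libraries were balanced in direction. In H3K27ac, 9030 regions lay higher (9.23%) and 9132 lower (9.33%). In ATAC, 4349 lay higher (13.8%) and 4508 lower (14.3%). GFP-negative nuclei, which went through the same treatments, gave like shares, with 10.7% higher and 10.2% lower in H3K27ac, and 13.6% higher and 13.5% lower in ATAC.

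Facts on the libraries bear on these values. Summed H3K27ac signal was 9512758 and 9247619 in FasLLL replicates 1 and 2, against 9936573 and 9331767 in FasSSL, and ATAC sums were 1241527 and 1344790 against 1279912 and 1415507. Sequencing depth is unknown, and the step between neighbouring low values, which grows, other things equal, as fewer reads stand behind a library, was 0.857 and 0.99 in FasLLL H3K27ac, against 1.73 and 0.96 in FasSSL. In ATAC it was 0.645 and 1.32 in FasLLL, against 0.852 and 1.76 in FasSSL, so the replicate 2 libraries were the coarser ones. H3K27ac replicates differed in contrast: the log2 gap between the fifth of regions with most signal and the fifth with least was 1.22 and 1.93 in FasLLL, against 1.12 and 2.13 in FasSSL. The 100 strongest H3K27ac regions took 5.69% and 3.13% of the signal in FasLLL, against 10.3% and 2.84% in FasSSL, so FasSSL replicate 1 stood highest. Mitochondrial ATAC signal took 5.91% and 9.03% in FasLLL, against 7.67% and 10.9% in FasSSL. Chromosome Y took 0.0571% and 0.0159% of H3K27ac signal in FasLLL, against 0.128% and 0.0164% in FasSSL. No 2 libraries held identical values.

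All 15 called H3K27ac regions were lower in FasLLL, mostly at places of very high signal. Of the 15, 13 had a mean signal of at least 100, against 24.1% of all tested regions, and 9 were in the top 1% by signal (at least 778). Only 7 were lower in both replicate pairs, 8 went in opposite directions in the pairs, and 1 had libraries that did not overlap. The strongest of them, on chromosome 2 at 98502227 to 98507677, had a signal of 147563.1 and 22873.9 in FasLLL replicates 1 and 2, against 526557.6 and 18190.2 in FasSSL. Here the replicate 1 pair was lower in FasLLL by far and the replicate 2 pair was slightly higher, so the groups overlap. The mean difference was -0.75 (SE 0.04), with -1.84 in the replicate 1 pair and 0.33 in the replicate 2 pair. FasSSS libraries held 11045.7 and 34890.9 there and FedSSS libraries 286990.7 and 47570.4, a range wider than the difference between the leptin groups.

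The same picture held for the other strong H3K27ac calls. Chromosome 11 at 3026918 to 3074463 had 15069.8 and 2604.1 in FasLLL, against 42990.5 and 2429.2 in FasSSL. Chromosome 9 at 3015032 to 3038464 had 9184.8 and 2046.3 in FasLLL, against 28848 and 1769.6 in FasSSL. These lie near the first assembled bases of their chromosomes, as do 4 more of the 15, on chromosomes 9, 11 and 12. Away from a chromosome start, the region on chromosome 9 at 35112570 to 35113330 had 5704.8 and 1301.7 in FasLLL, against 15989.6 and 1207.8 in FasSSL. In all 15 regions FasSSL replicate 1 was the highest of the 4 libraries. It also had the largest share of signal in the 100 strongest regions. The part of that library feature in the calls was not tested. The fit without FasSSL replicate 1 also had no replicate block, so it cannot tell that library from the block. Of the 15, 7 were also called lower in FasLLL among GFP-negative nuclei.

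The single called H3K27ac region whose libraries did not overlap spans 8322 bp of chromosome 9, from 91271642 to 91279963. Its signal was 47 and 34.7 in FasLLL (mean 40.85 ± 8.7, SD, n = 2), against 158.3 and 54.1 in FasSSL (mean 106.2 ± 73.7, SD, n = 2). FasSSL replicate 1 stood apart, while FasSSL replicate 2 was close to FasSSS at 36.2 and 53.1 and to FedSSS at 44.6 and 53. The difference was -1.18 (SE 0.24, adjusted p = 0.0103 by limma, lower in 2 of 2 pairs). GFP-negative libraries had 154.3 and 223.9 in FasLLL and 160 and 150.6 in FasSSL, above the GFP-positive level of most treatments. The difference between sorts was -1.44 there and was not called (adjusted p = 1 by limma). The authors' deposited table gives this region a log2 change of -1.31 and an unadjusted p of 0.00664, with an FDR of 1. Of 19 alternative settings, 11 called this region, with adjusted p between 0.00119 and 1.

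**Figure D2:**
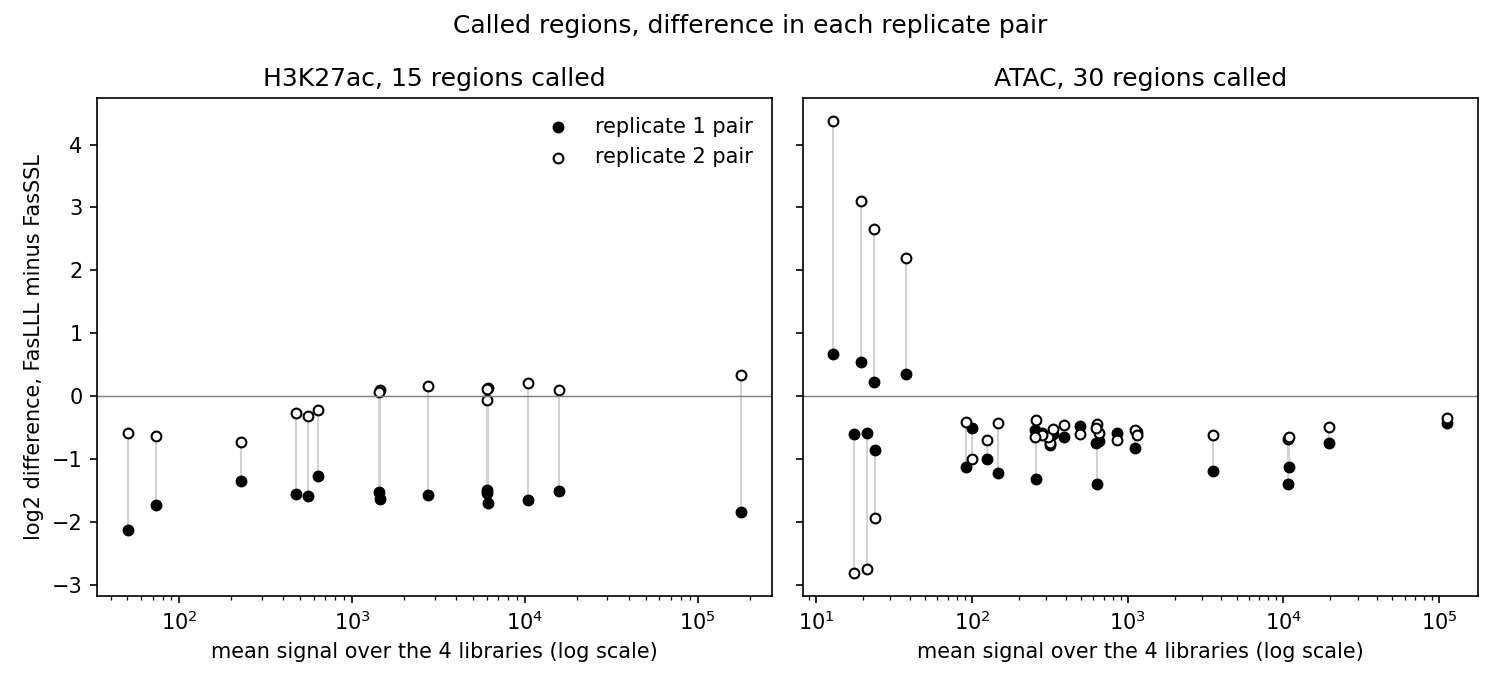
Difference between FasLLL and FasSSL (log2) in the replicate 1 pair (filled) and the replicate 2 pair (open) against mean signal (log scale) for the 15 called H3K27ac regions, left, and the 30 called ATAC regions, right. In H3K27ac the replicate 1 pair is lower in FasLLL at every called region and 8 regions lie above 0 in the replicate 2 pair, while all 30 ATAC regions keep their sign in both pairs.

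The 30 called ATAC regions fall into a large group of strong regions that were lower in FasLLL and a few weak ones. Of the 30, 22 had a mean signal of at least 100, against 4.33% of all tested regions, and 19 were in the top 1% (at least 176) and also among the 100 strongest. All 30 differed in the same direction in both pairs, while 10 had libraries that did not overlap, 3 higher and 7 lower. The strongest called region outside the mitochondrial genome, on chromosome 17 at 39979963 to 39985772, had a signal of 8012.5 and 23684.4 in FasLLL, against 13374.9 and 33320.1 in FasSSL (difference -0.62, SE 0.06). The groups overlap, and within each pair FasLLL is the lower. FasSSS held 14719.1 and 30137.5 and FedSSS 12966 and 28903.5, so FasLLL was lower there than each other treatment of the same replicate number. The mitochondrial genome was itself called lower (73394.1 and 121476 in FasLLL, against 98185.4 and 154235.2 in FasSSL).

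Short, isolated strong ATAC regions showed the same arrangement on many chromosomes. Chromosome 13 at 44964941 to 44965390 had 125.5 and 345.6 in FasLLL, against 216.9 and 576.9 in FasSSL, a difference of -0.76 (SE 0.13). FasSSS libraries held 195.6 and 509.3 and FedSSS libraries 186.7 and 523.9, above FasLLL for each replicate number. This region has the smallest FDR of the comparison in the authors' deposited table, 0.713, at an unadjusted p of 1.47e-05 and a log2 change of -0.76. Chromosome 3 at 5860356 to 5860826 had 457 and 1368.6 in FasLLL, against 681.1 and 2085.5 in FasSSL. In these regions replicate 2 libraries held more signal than replicate 1 libraries in both treatments. The share of mitochondrial signal and of signal in the 100 strongest regions was also lower in FasLLL than in FasSSL for each replicate number (top 100, 9.61% and 15.6% against 13% and 19.2%). Their part in the calls was not tested. With the 1% of regions of highest signal left out, an alternative chosen after seeing the data, 5 ATAC regions were called, 2 higher and 3 lower in FasLLL.

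Regions with separated libraries give the clearest view of single ATAC sites. Highest in rank among those higher in FasLLL was chromosome 17 at 87454234 to 87454939, with 25.5 and 31.7 in FasLLL, against 17.2 and 2.8 in FasSSL (difference 1.82, SE 0.4, adjusted p = 0.00908 by limma, higher in 2 of 2 pairs). FasSSL replicate 2 stood far below the other libraries there, which included 20 and 17.5 in FasSSS, 28.3 and 29.2 in FedSSS, and 25.1 and 26.5 in FasSSL GFP-negative nuclei. Chromosome 1 at 117740003 to 117740572 had 19.8 and 19.8 in FasLLL, against 12.1 and 0 in FasSSL (adjusted p = 0.0299 by limma). The FasSSL replicate 2 value is listed at 0, so no fold is given, and FasSSS replicate 2 was also low at 3.7. Chromosome 13 at 67005807 to 67006676 had 30 and 34.3 in FasLLL, against 25.7 and 4.6 in FasSSL (difference 1.44, SE 0.35, adjusted p = 0.0431 by limma). In each of these 3 regions the replicate 1 pair differed by 0.22 to 0.67 and the low value belonged to FasSSL replicate 2, the library with the coarsest steps of the 4. The fit without that library also had no replicate block, and without the block 0 ATAC regions were called with all libraries kept. The part of that library in the calls was not tested.

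A further 3 ATAC regions ranked next among those higher in FasLLL and did not pass the threshold. Chromosome 1 at 163898838 to 163900002 came closest, with 53.9 and 56.6 in FasLLL, against 37.7 and 18.7 in FasSSL (difference 1.03, SE 0.25, adjusted p = 0.052 by limma). Here FasSSS held 56.7 and 43.6 and FedSSS 42.3 and 44.3, between the leptin groups or at the FasLLL level. Chromosome 1 at 96241763 to 96242424 had 28.1 and 19.8 in FasLLL, against 13.8 and 2.8 in FasSSL. Chromosome 3 at 75101231 to 75102011 had 26.8 and 21.1 in FasLLL, against 17.2 and 2.8 in FasSSL.

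Among ATAC regions lower in FasLLL with separated libraries, the top 2 in rank were very strong, and overlap strong H3K27ac calls. Chromosome 9 at 3000010 to 3038202 had 4265.9 and 10437.1 in FasLLL, against 11254 and 16695 in FasSSL. Chromosome 2 at 98506418 to 98507401 had 4998.3 and 10671.2 in FasLLL, against 10932.8 and 16598.9 in FasSSL. In both, FasLLL replicate 1 was the lowest of the 8 GFP-positive libraries, and GFP-negative libraries were lower than most GFP-positive ones, at 3704.9 to 5446.7 for the chromosome 9 region and 4246.2 to 6381.5 for the chromosome 2 region under leptin. With quantile normalization the difference of the chromosome 2 region turned to 0.08 and that of the chromosome 9 region shrank to -0.08. Of 18 alternative settings, 8 called each of these 2 regions.

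The other 4 named ATAC regions lower in FasLLL were weaker, 2 of them still in the top 5% by signal (those on chromosome 1 from 74437078 and on chromosome 4). Chromosome 1 at 74437078 to 74442815 had 73.7 and 73.6 in FasLLL, against 104.5 and 148.7 in FasSSL (difference -0.75, SE 0.18, adjusted p = 0.0265 by limma, lower in 2 of 2 pairs). FasSSS with 96.1 and 87.7 and FedSSS with 105.4 and 110.6 lay above both FasLLL libraries. Chromosome 1 at 82783867 to 82784371 had 19.8 and 3.8 in FasLLL, against 30 and 31 in FasSSL (adjusted p = 0.0133 by limma). At this site FasSSL was the unusual treatment, since FasSSS held 14.3 and 6.1 and FedSSS 8.6 and 6.9. Chromosome 7 at 107988092 to 107989051 had 13.3 and 3.8 in FasLLL, against 20.6 and 32.7 in FasSSL (adjusted p = 0.0431 by limma). Chromosome 4 at 3016777 to 3018268, near the chromosome start, had 48.9 and 89.3 in FasLLL, against 107.1 and 118.9 in FasSSL (adjusted p = 0.038 by limma). Of 18 or 19 alternative settings each, 4 to 10 called the 9 named ATAC regions past the threshold, with the fewest, 4, for chromosome 1 from 117740003.

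**Figure D3:**
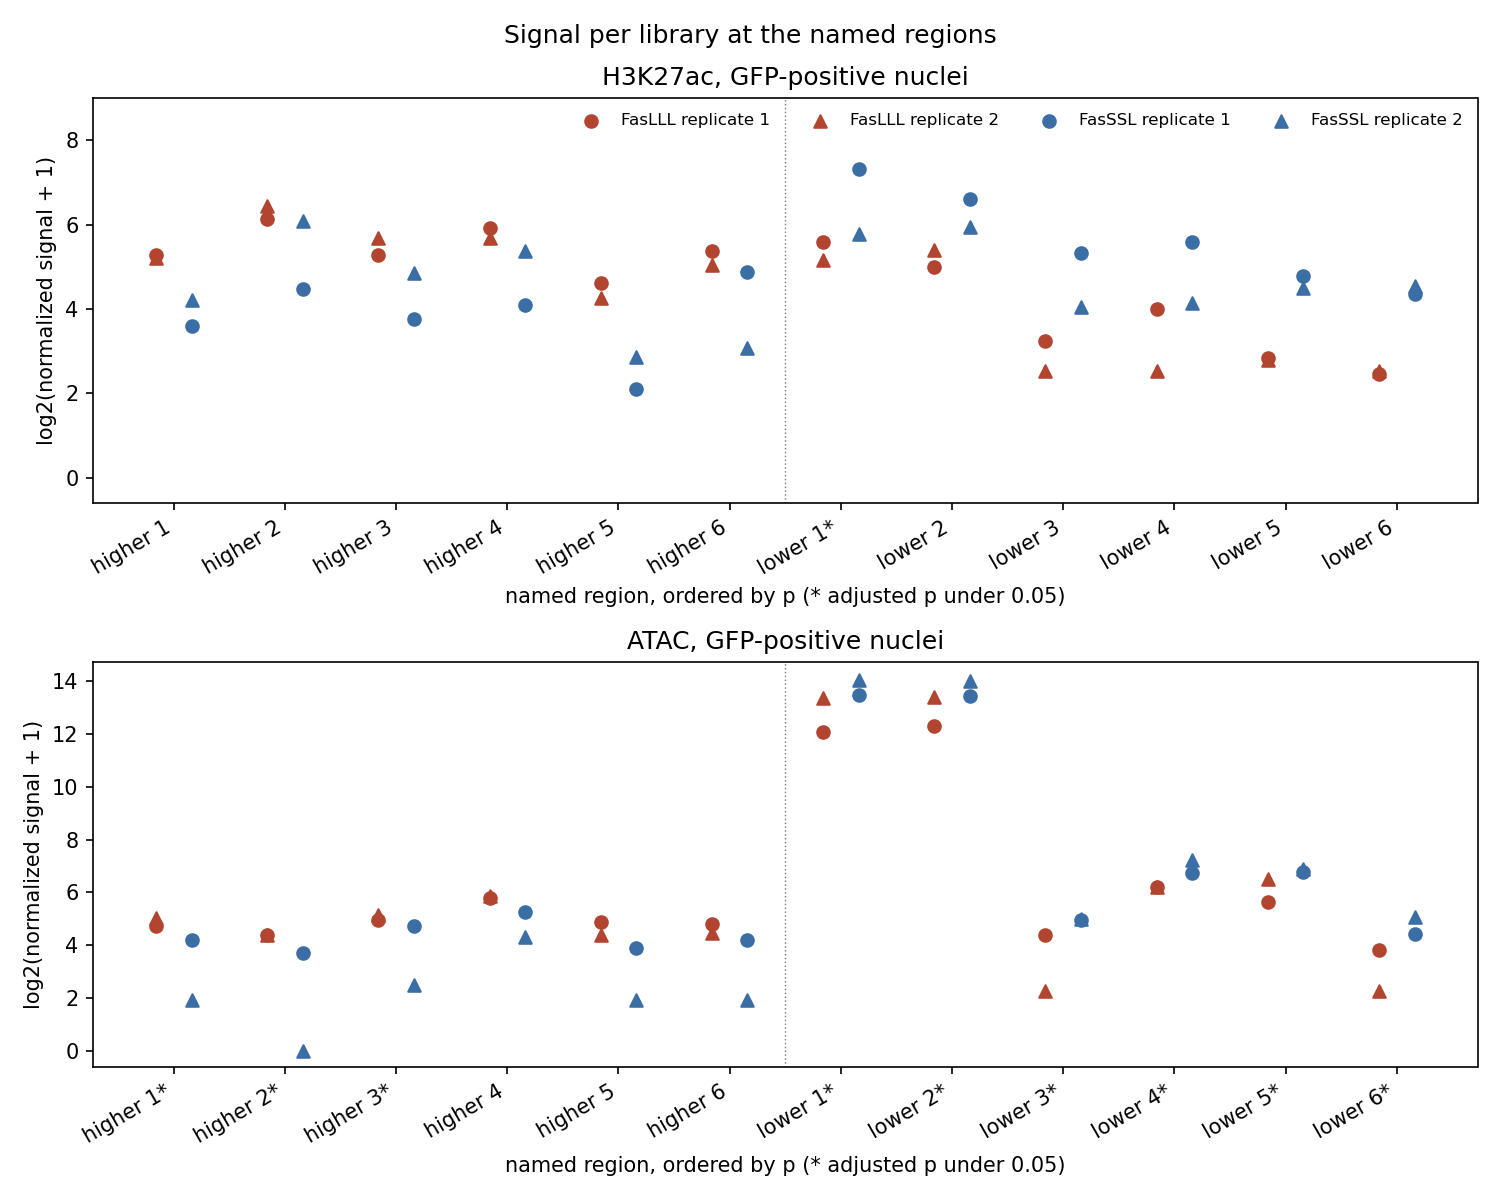
Signal of each GFP-positive library, as log2(normalized signal + 1), at the 6 regions ranked first among those higher and the 6 among those lower in FasLLL with libraries that do not overlap, H3K27ac above and ATAC below (FasLLL left of FasSSL within a region). Asterisks mark the regions past the threshold: 1 H3K27ac region and 9 ATAC regions, and the second ATAC region among those higher has 1 FasSSL library at 0.

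No H3K27ac region higher in FasLLL passed the threshold. Chromosome 6 at 94213412 to 94215211 ranked first, with 37.9 and 35.7 in FasLLL, against 11 and 17.6 in FasSSL (difference 1.34, SE 0.33, adjusted p = 0.211 by limma). FasSSS held 32.2 and 34.8 and FedSSS 34.6 and 23, all above both FasSSL libraries and below both FasLLL libraries. Chromosome 13 at 51675515 to 51677774 had 69.2 and 86.3 in FasLLL, against 21.1 and 66.5 in FasSSL, where FasSSL replicate 1 stood apart. Chromosome 11 at 84770645 to 84771940 had 37.9 and 50.5 in FasLLL, against 12.6 and 27.9 in FasSSL. Chromosome 13 at 100357816 to 100359019 differed from these, since its 23.7 and 18.3 in FasLLL lay above every other GFP-positive library: FasSSL held 3.3 and 6.3, FasSSS 6.1 and 13.1 and FedSSS 7.2 and 8.6 (difference 1.96, SE 0.51, adjusted p = 0.362 by limma). The remaining 2 named regions higher in FasLLL were on chromosome 2 from 74802877 (difference 1.08) and on chromosome 4 from 139810557 (difference 1.24), with adjusted p of 0.294 and 0.365 by limma.

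Lower in FasLLL without passing the threshold were 5 of the 6 named H3K27ac regions. Chromosome 5 at 72766744 to 72770761 had 30.7 and 41.3 in FasLLL, against 96.6 and 60.8 in FasSSL (difference -1.08, SE 0.25, adjusted p = 0.102 by limma). FasSSS held 50.4 and 57.3 and FedSSS 40.9 and 57. All but FedSSS replicate 1 lay between the leptin groups, and that library lay just below FasLLL replicate 2. Chromosome 7 at 87639865 to 87640572 had 4.5 and 4.8 in FasLLL, against 19.4 and 22.4 in FasSSL, with -1.89 and -2.01 in the pairs. FasSSS held 15.4 and 14.3 there and FedSSS 11.2 and 13.2, all above FasLLL and below FasSSL. Chromosome 15 at 72769766 to 72770559 had 6.1 and 5.9 in FasLLL, against 26.4 and 21.4 in FasSSL, with FasSSS at 13.2 and 9.4 and FedSSS at 13.3 and 5.1. The regions on chromosome 3 from 8245550 and on chromosome 7 from 149757679 differed by -1.8 and -1.59, with adjusted p of 0.211 and 0.215 by limma.

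Acetylation and accessibility were compared where their regions overlap by at least 1 bp. There were 30748 overlapping pairs of tested regions, and their differences had a rank correlation of 0.01, with 49.2% of the same sign (a description across regions). Both assays had separated libraries and higher FasLLL signal in 267 pairs (0.868%), both lower in 153 (0.498%), and opposite directions in 365 (1.19%). Called in both assays were 5 of the 30748 pairs, on chromosomes 2, 9 and 17, all lower in FasLLL by the mean difference. They are the strong regions of chromosomes 2 and 9 given above and, on chromosome 17, the H3K27ac region at 13743332 to 13746204 with the ATAC region at 13743599 to 13746012. There the H3K27ac signal was 679.2 and 104.5 in FasLLL, against 1628.1 and 122.1 in FasSSL, and the ATAC signal 172.4 and 807 in FasLLL, against 452.3 and 1094 in FasSSL. The H3K27ac replicate 2 pair was higher in FasLLL at chromosome 2 (0.33) and at chromosome 9 from 3015032 (0.21) and from 2999827 (0.13). At the chromosome 17 region that pair was lower (-0.22).

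Named pairs were taken only from those with separated libraries in both assays and the same direction. The 4 of these with the smallest larger p did not pass the threshold in either assay. On chromosome 5, the H3K27ac region at 151183637 to 151189935 had 139.8 and 163.8 in FasLLL, against 86.3 and 133.3 in FasSSL. The ATAC region inside it, at 151187179 to 151188300, had 22.3 and 22.4 in FasLLL, against 13.8 and 9.9 in FasSSL. In H3K27ac, FasSSS held 167.7 and 168.5 and FedSSS 136.1 and 154.7, all above FasSSL of the same replicate number. In ATAC, FasSSS held 24.6 and 8.4 and FedSSS 19.9 and 15.3, and FasSSS replicate 2 lay below FasSSL. On chromosome 16, the H3K27ac region at 29812781 to 29817618 had 110.4 and 132.7 in FasLLL, against 154 and 169.4 in FasSSL. The ATAC region at 29813219 to 29814600 had 24.9 and 19.8 in FasLLL, against 36.9 and 32.7 in FasSSL. In H3K27ac the fasted and fed controls (162.9, 164.8, 145.7 and 160.3) were at the FasSSL level, and FasLLL alone was below them. In ATAC the same controls held 22.3, 30.7, 17.1 and 27.8, all below both FasSSL libraries, so there FasSSL stood apart. The other 2 pairs lie on chromosome 5 from 76027164, higher in FasLLL (differences 0.42 in H3K27ac and 1.03 in ATAC), and on chromosome 4 from 138941975, lower in FasLLL (-0.58 and -0.93).

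Groups of regions were described by length, neighbourhood, chromosome and signal, with no test. Long H3K27ac regions, of 10000 bp or more, were the most precise: the middle 90% of 9291 regions lay between -0.18 and 0.21, and 0 of them had a mean difference of 2-fold or more. They took 45.1% and 39.9% of H3K27ac signal in FasLLL, against 44% and 38.5% in FasSSL. Their median difference was 0.03, beside 0.01 for all, and 540 had separated libraries that were higher (5.81%, beside 9.23% of all) and 254 lower (2.73%, beside 9.33%). Short H3K27ac regions under 1000 bp leaned the other way, with a median of -0.05, and 9.59% separated higher against 15.6% lower. The fifth of H3K27ac regions with most signal held 5.18% higher and 2.54% lower, and the fifth with least 12.3% higher and 14.5% lower. On chromosome X, 3% of H3K27ac regions were separated and higher and 8.87% lower, while 20.1% of ATAC regions were higher and 9.26% lower, so the assays leaned in opposite directions there.

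Regions that mark the sort were set from the FedSSS and FasSSS libraries alone, as those with at least a 2-fold difference between sorts and no overlap of 4 against 4 libraries. In H3K27ac, 708 regions were higher in GFP-positive nuclei, and they took 0.178% and 0.236% of signal in FasLLL, against 0.163% and 0.238% in FasSSL. Of the 455 tested, 0 were called by limma (beside 0.0153% of all), 21 had an unadjusted p under 0.05 (4.62%, beside 4.09% of all), and the median difference was 0.05 (0.06 and -0.02 in the pairs). The 3033 regions lower in GFP-positive nuclei took 1.92% and 1.25% in FasLLL, against 2.34% and 1.11% in FasSSL, with medians of -0.33 and 0.14 in the pairs. In ATAC, the 502 regions higher in GFP-positive nuclei took 0.652% and 0.46% in FasLLL, against 0.581% and 0.543% in FasSSL, with medians of 0.13 and -0.32 in the pairs over 306 tested regions. The 929 regions lower in GFP-positive nuclei took 0.481% and 0.709% in FasLLL, against 0.496% and 0.52% in FasSSL. FasLLL replicate 2 thus had the least of the first kind and the most of the second among the 4 ATAC libraries.

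**Figure D4:**
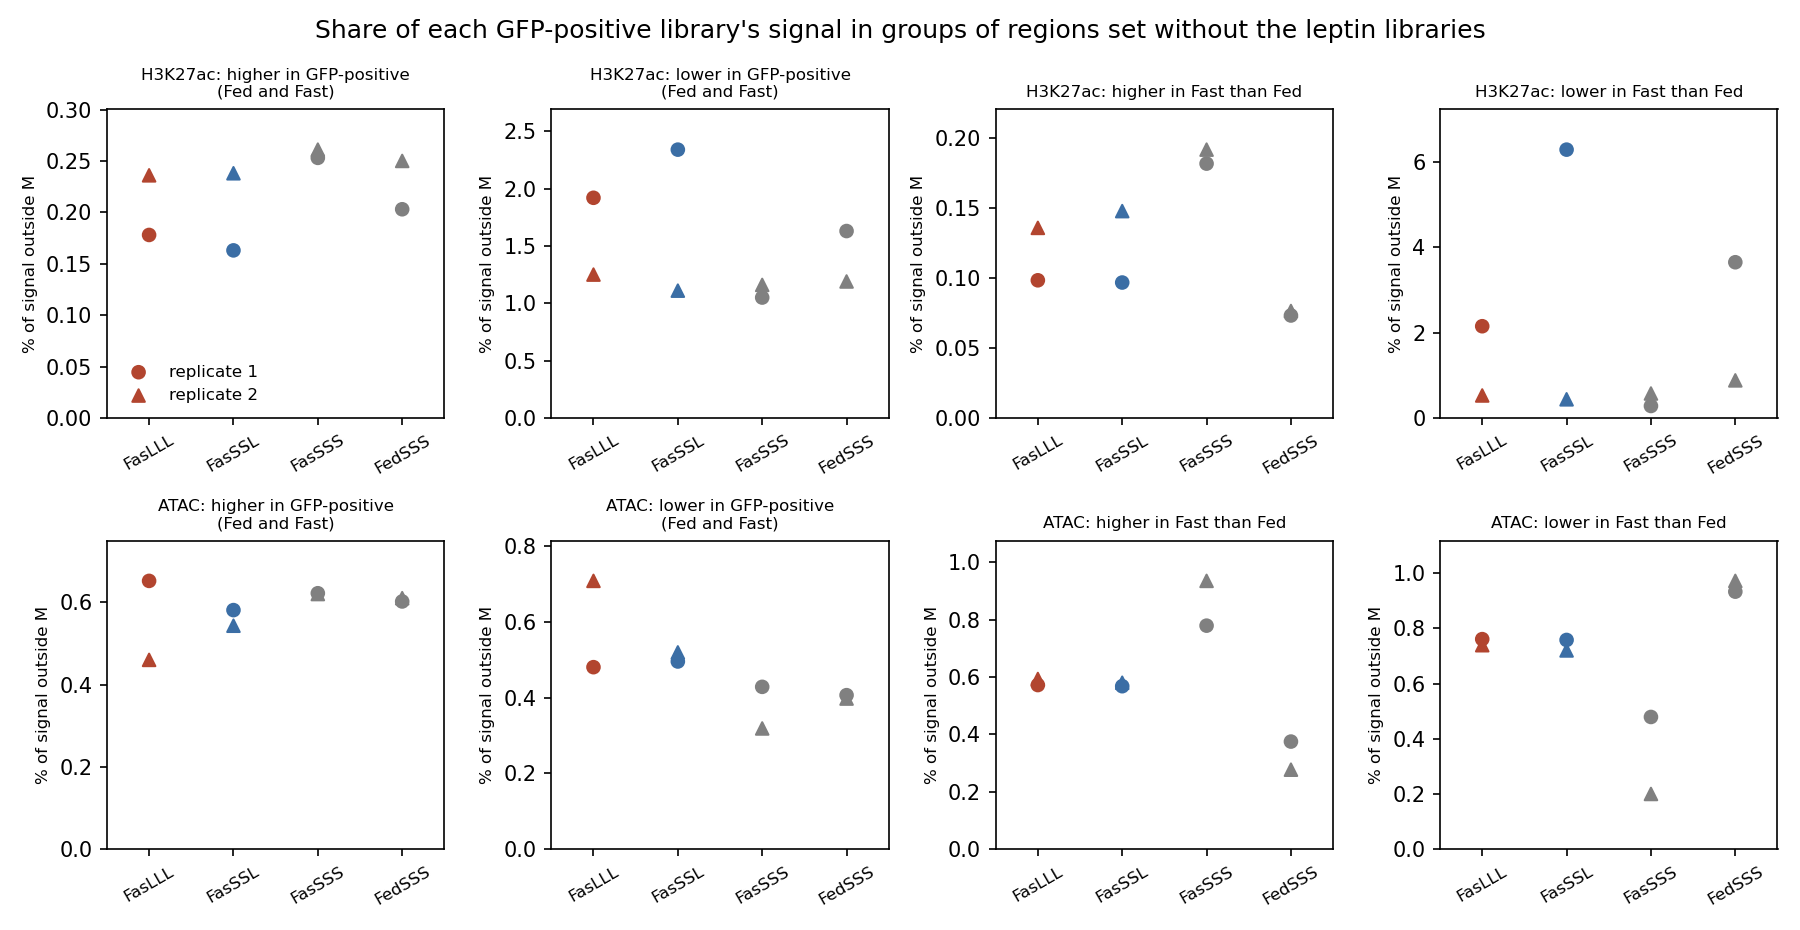
Share of each GFP-positive library's signal outside the mitochondrial genome (percent) in regions set apart by sort or by fasting from FasSSS and FedSSS libraries, H3K27ac in the upper row and ATAC in the lower, circles for replicate 1 and triangles for replicate 2. ATAC signal in regions higher in Fast than Fed is 0.572% and 0.593% in FasLLL and 0.568% and 0.58% in FasSSL. H3K27ac shares mostly differ more between replicates than between the leptin groups. In regions lower in Fast than Fed they are 2.15% and 0.526% in FasLLL and 6.29% and 0.436% in FasSSL, with FasSSL replicate 1 the highest.

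The strongest regions of each kind, picked by their level in FedSSS and FasSSS libraries after their values had been seen, show the values behind these shares, and were not equally alike. More different was the ATAC region on chromosome 17 at 65305187 to 65306408, less open in GFP-positive nuclei (25.5 and 33 in FasLLL, against 15.5 and 25.7 in FasSSL; difference 0.52, SE 0.31). The H3K27ac region on chromosome 5 at 120116865 to 120133741, higher in GFP-positive nuclei, had 493.3 and 745.9 in FasLLL, against 632.8 and 674.5 in FasSSL (difference -0.11, SE 0.14). GFP-negative libraries held 389.1 and 326.8 in FasLLL and 448.8 and 304 in FasSSL. Another such region, on chromosome 4 at 101353935 to 101374105, had 419.1 and 354 in FasLLL, against 389.4 and 334.8 in FasSSL (difference 0.09, SE 0.16). The ATAC region on chromosome 8 at 72939437 to 72941570, more open in GFP-positive nuclei, had 70 and 67.1 in FasLLL, against 51.4 and 71.4 in FasSSL (difference 0.17, SE 0.2). Those less open in GFP-positive nuclei included chromosome 2 at 116800429 to 116802029, with 41.4 and 33 in FasLLL, against 34.3 and 27.5 in FasSSL, and 67 and 69.3 in FasLLL GFP-negative nuclei. Among H3K27ac regions lower in GFP-positive nuclei, chromosome 17 at 10626397 to 10711334 had 1097.9 and 408.4 in FasLLL, against 1540.7 and 315.5 in FasSSL, with pairs of -0.49 and 0.37. In all 6 of these regions the libraries of the leptin groups overlapped.

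Regions that separate fasting from feeding were set from the FasSSS and FedSSS GFP-positive libraries (at least 2-fold, 2 against 2). The 995 ATAC regions higher in FasSSS took 0.572% and 0.593% of signal in FasLLL, against 0.568% and 0.58% in FasSSL. They took 0.779% and 0.935% in FasSSS and 0.375% and 0.277% in FedSSS, a gap fixed by the choice of regions. GFP-negative FasSSS libraries, not used for the choice, held 0.638% and 0.631%. Leptin shares between FasSSS and FedSSS thus do not show that leptin changed these regions. The 1189 regions lower in FasSSS took 0.761% and 0.739% in FasLLL, against 0.758% and 0.72% in FasSSL. The leptin groups were nearly equal in both shares, and of the 221 and 300 of these regions tested, 0 were called by limma (beside 0.0953% of all ATAC regions). An unadjusted p under 0.05 was reached by 12 (5.43%) and 13 (4.33%) of them, beside 5.54% of all. Among single regions, chromosome 2 at 109517038 to 109518953, lower in fasting, had 37 and 43.5 in FasLLL, against 34.3 and 41.5 in FasSSL. Chromosome 3 at 133898659 to 133899833, higher in fasting, was less alike, with 30.6 and 7.8 in FasLLL, against 30.9 and 31 in FasSSL (difference -0.94, SE 0.33, adjusted p = 0.597 by limma). In H3K27ac the 1406 regions higher in FasSSS took 0.0985% and 0.136% in FasLLL, against 0.0969% and 0.148% in FasSSL. The 1735 regions lower in FasSSS took 2.15% and 0.526% in FasLLL, against 6.29% and 0.436% in FasSSL. FasSSS held 0.28% and 0.572% and FedSSS 3.65% and 0.88%, so the FedSSS replicates lay far apart. The log2 gap of contrast was 1.21 in FedSSS replicate 1, against 1.92 in replicate 2 and 2.07 and 1.98 in FasSSS. The part of contrast in this group was not tested. Of the 699 tested, 4 were called lower (0.572%, beside 0.0153% of all), among them the strong chromosome 2 region called above.

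**Figure D5:**
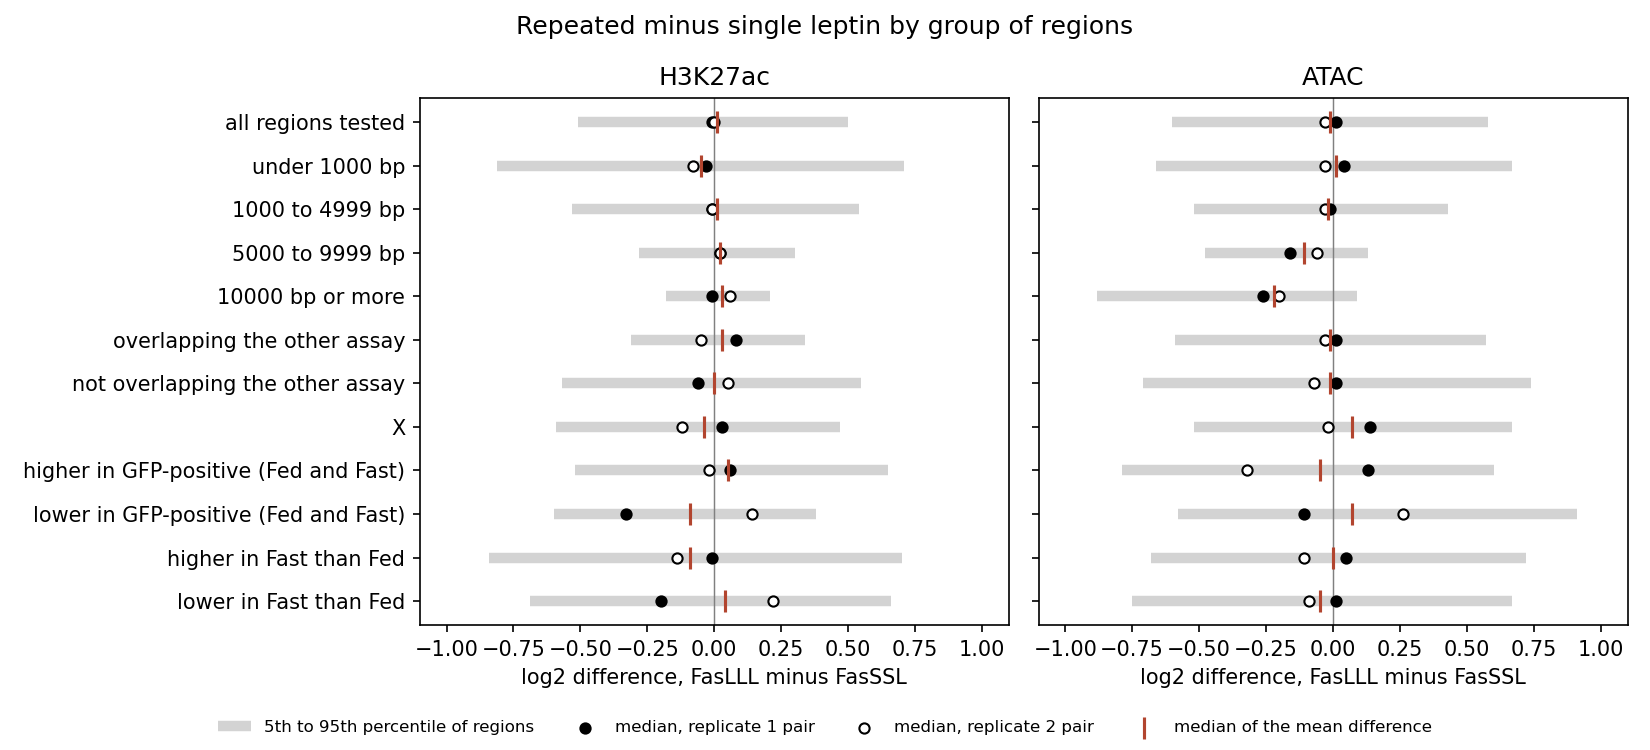
Difference between FasLLL and FasSSL (log2, horizontal) for groups of tested regions in GFP-positive nuclei, H3K27ac left and ATAC right, with grey bars for the middle 90% of regions, circles for the median in each replicate pair and a red tick for the median of the mean difference. Medians lie near 0 for most groups, and for regions lower in GFP-positive nuclei the pairs lie on opposite sides of 0 (-0.33 and 0.14 in H3K27ac).

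The same comparison was made in GFP-negative nuclei, outside the LepRb-labelled sort. In H3K27ac 16 of 98265 regions were called (0.0163%), 4 higher (0.00407%) and 12 lower (0.0122%) in FasLLL, and in ATAC 0 of 31279 were called by limma, with 1457 at an unadjusted p under 0.05. The difference between sorts was then tested itself. For H3K27ac 0 of 98376 regions were called by limma, with 4196 at an unadjusted p under 0.05 and a smallest adjusted p of 0.766. For ATAC 3 of 31518 regions were called (0.00952%), all with a FasLLL minus FasSSL difference that was lower in GFP-positive than in GFP-negative nuclei, and all on chromosomes 2 and 9 among the very strong regions. Apart from those 3 regions, no difference between the leptin groups was shown to differ between sorts. The 3 calls were lost without the block. Fits that left out a library also had no block, so they cannot show the part of that library.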

How the data were processed

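Normalized signal per region came from the authors' deposited tables for H3K27ac (126368 regions) and ATAC (48634 regions), headed as normalized counts per the file headers. How they were normalized is not stated there or in the labels. The deposited values carry 1 decimal and no whole reads could be recovered, so no count model was used and depth is unknown. Per the file headers the authors also deposited log2 fold changes, p-values and FDR for this comparison, quoted only as the authors' values, and variance-stabilized log2 values, used only as an alternative. The submitters' processing notes name, with no role stated, mm9, DESeq2 1.16.1, HTSeq 0.6.0, MACS2, the aligners Bowtie2 2.2.6, Bowtie 1.2 and STAR 2.5.2b, and CASAVA 1.8. Not analysed here were 4 ATAC input, 16 ChIP input and 23 RNA samples.

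Samples were grouped by their labels. Regions with a mean signal of at least 10 over the 4 libraries were kept, a limma 3.58.1 model (R 4.3.3) of log2(signal + 1) took treatment and replicate number as terms and a variance prior that follows signal, and p-values were adjusted by Benjamini-Hochberg over all regions tested. The fits were also run on simulated data, drawn with the variance that the fits had estimated. That run thus cannot show whether this variance is right for these libraries. Values on this log scale understate changes of weak regions. An exact permutation test of 2 against 2 libraries cannot give a two-sided p below 0.333. The block comes from the rule of the comparison. Same-numbered libraries deviated together, with a correlation of deviations of 0.64 in H3K27ac and 0.23 in ATAC, over 2 pairs. GFP-negative libraries were fitted alike, and the difference between sorts was fitted on all 8 libraries of both treatments. Overlaps used GenomicRanges 1.54.1, data handling used the package data.table (release 1.17.8) and plots matplotlib 3.10.9.

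Named regions were, for each assay, the 6 higher and 6 lower with the smallest p. They were taken from regions with libraries that do not overlap and the same direction in both pairs. Named as well were 4 overlapping pairs of regions with the same direction and with separated libraries in each assay. They were those with the smallest larger p of the assays. Regions of chromosome 18, unplaced sequence and the mitochondrion are counted and not named there. Other called regions and the examples of region groups were chosen after their values were seen. The comparison, its groups of regions and its tests were chosen with earlier results of these data known.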

Additional observations from a re-analysis of the deposited data

Results flagged for a closer look

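The FasLLL minus FasSSL difference was called as unequal in the 2 sorts at 3 ATAC regions, each lower in GFP-positive than in GFP-negative nuclei (adjusted p = 0.0159 by limma for each). On chromosome 2 at 98502412 to 98504231 the difference between sorts was -1.04, with 1551.1 and 3586 in FasLLL and 3539.4 and 5479.1 in FasSSL GFP-positive nuclei. GFP-negative nuclei held 1887.6 and 1557.9 there in FasLLL and 1351.9 and 1800.3 in FasSSL. At 98506418 to 98507401 of the same chromosome the difference between sorts was -1.06. On chromosome 9 at 3000010 to 3038202 it was -1.1, with 4265.9 and 10437.1 in FasLLL and 11254 and 16695 in FasSSL GFP-positive nuclei. GFP-negative nuclei held 5446.7 and 3704.9 in FasLLL and 3906 and 4719.4 in FasSSL. Fasted mice without leptin held 15788 and 13230 in GFP-positive nuclei at this chromosome 9 region, so FasLLL replicate 1 was the low library. Without the replicate block 0 of the 3 were called. The fits that left out a library in turn also had no block, so they cannot tell a library from the block. With quantile normalization 2 of the 3 were called, 1 of them with the difference higher in GFP-positive nuclei.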

How the results depend on the processing

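The counts of called regions depended on how the error was estimated. Without the replicate block, with all 16 libraries and no block, and with a prior without a trend in signal, limma called 0 regions in both GFP-positive comparisons, 0 in GFP-negative H3K27ac and 0 ATAC differences between sorts. All 8 GFP-positive libraries without the block also gave 0 in both GFP-positive comparisons, where 1411 in H3K27ac and 695 in ATAC had an unadjusted p under 0.05. Without a filter on mean signal the GFP-positive counts and the ATAC difference between sorts were 0. Quantile normalization gave 8 H3K27ac calls in GFP-positive nuclei, 1 higher and 7 lower, and 0 in GFP-negative nuclei, and it moved the ATAC split to 8 higher and 21 lower. It also turned the chromosome 2 ATAC region from 98506418 to 0.08. The robust prior gave 8 H3K27ac calls in GFP-negative nuclei and 1 ATAC difference between sorts, which was none of the 3. Of the alternatives added after seeing the data, leaving out the 1% of regions with most signal gave 5 H3K27ac and 5 ATAC calls in GFP-positive nuclei, 1 H3K27ac call in GFP-negative nuclei and 0 ATAC differences between sorts. Stabilized values gave 28 H3K27ac calls and 0 ATAC differences between sorts. Centring on the median, or a mean signal of 30 or more, gave 0 ATAC differences between sorts. Beyond the choices built into an alternative, the cause was not tested.

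Leaving out each library in turn also dropped the replicate block, which with all libraries kept gave 0 calls in both GFP-positive comparisons. The counts that follow thus cannot be laid to the library alone, and the lone library is assumed to vary like the others. H3K27ac calls were 0 without either FasLLL library, 2 without FasSSL replicate 1 and 101 without FasSSL replicate 2. ATAC calls were 1 without FasLLL replicate 1, 27 without FasLLL replicate 2, 5 without FasSSL replicate 1, all 5 higher in FasLLL, and 0 without FasSSL replicate 2. The 17 ATAC differences between sorts, all higher, arose without FasSSL replicate 1 of the GFP-positive sort and held none of the 3. GFP-negative H3K27ac calls turned direction with the library left out: 10 higher and 0 lower without FasLLL replicate 2, 7 higher and 0 lower without FasSSL replicate 1, and 0 higher and 12 lower without FasLLL replicate 1 or FasSSL replicate 2. The H3K27ac difference between sorts and the ATAC comparison in GFP-negative nuclei had 0 calls under every setting run. With 2 libraries a group and unknown depth, a difference in a typical region below about 0.53 (H3K27ac) or 0.66 (ATAC) could not be seen. These limits hold before adjustment for the number of regions, and a call needed a larger difference.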
